A study of Mus musculus with 18 samples.

Results

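The lenses of mice that carry the mutant *Cryaa* allele on both chromosomes were compared with the lenses of mice that carry it on 1 chromosome, so the comparison sets 2 mutant alleles against 1. *Cryaa* encodes αA-crystallin, and *Cryaa*-R49C is a knock-in of a human cataract mutation. Of the 18 sequenced samples of the study, 6 enter here: 3 *Cryaa*-R49C-homo samples and 3 *Cryaa*-R49C-het samples, taken by their sample titles, because the genotype field of the other line of the study repeats the *Cryaa*-R49C names. Both groups came from 2-day-old C57BL/6J mice, and every mouse in the comparison carries at least 1 mutant allele. Each sample was RNA from several whole lenses pooled together, so a sample is a pool and not an animal. A whole lens holds the epithelium, the fibre cells and whatever vessels and other tissue adhere to it. The other 12 samples are the WT lenses of this line and the 3 groups of a *Cryab*-R120G line at 14 days. They helped to estimate the spread between libraries and took no part in the contrast. The labels do not say that the pools of a group came from separate litters, so the p-values measure spread between pools. That spread was estimated for each gene from all 18 samples and not from the het and homo pools alone.

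The lens consists of a single layer of epithelial cells over a mass of fibre cells. Epithelial cells stop dividing, elongate into fibres, fill with crystallins and lose their nuclei and organelles. αA-crystallin is a small heat shock protein that binds other proteins as they unfold and is a main protein of the fibre cell. Cells that accumulate misfolded protein or lack amino acids can activate the integrated stress response. In it, phosphorylation of the initiation factor eIF2α slows translation in general, while the transcription factor ATF4 is translated more. ATF4 and its partner CHOP, the product of *Ddit3*, then activate genes for amino acid synthesis and uptake, tRNA charging and cell death. p53 is a separate stress-activated transcription factor that arrests the cell cycle and can start apoptosis.

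Library totals were 19705471 to 22018712 counts in the het group and 15362115 to 20061547 counts in the homo group. Levels are given as CPM, which are counts scaled to library size and TMM factor, for replicates 1, 2 and 3 of a group in that order. CPM is not divided by gene length, so it compares a gene between libraries and not 1 gene with another. The targeted gene itself (chr17:31677807-31681733 in GRCm38, plus strand) was at 85244, 118005 and 77158 CPM in the het libraries and 92956, 38261 and 31386 CPM in the homo libraries. The groups overlapped and the difference did not pass the threshold (log2 fold change -0.79, SE 0.33, adjusted p = 0.144). Gene counts do not tell the mutant allele from the normal allele, so this level does not check the genotype labels.

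The homo libraries were not alike. Homo replicate 1 was closer to the het libraries (Pearson r of log2 CPM across genes 0.9425 to 0.9542) than to homo replicates 2 and 3 (0.9115 and 0.9067), which were close to each other (0.9705). Crystallin transcripts made up 61.2% of the counts in homo replicate 1 and 52.8% to 61.4% in the het libraries, but 37.7% and 23.8% in homo replicates 2 and 3. Gm42418, whose locus overlaps an annotated ribosomal RNA gene, took 2.53% of the counts of homo replicate 1 and 24.5% and 42.6% of those of replicates 2 and 3, against 11.9% to 17.97% in the het libraries and 20.01% to 30.1% in the WT libraries. Among 9547 genes the median SD of log2 CPM was 0.428 among the homo libraries and 0.212 among the het libraries. List counts that move by over 1.5 times without homo replicate 1 are therefore given with and without it. A gene past the threshold is described without further remark where it also passed when each of the 6 libraries was left out in turn. Of such genes, *Bfsp1*, *Cdh5*, *Crygb*, *Fabp5*, *Hmgn3* and *Rsad2* did not pass when the 6 libraries alone were fitted. For a list, rose and fell count the members past the threshold with all libraries.

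Of 13938 genes tested, 1160 (8.32%) differed between homo and het lenses at an adjusted p of 0.05 or less, by edgeR's quasi-likelihood test with Benjamini-Hochberg adjustment. Of these, 654 (4.69% of the genes tested) were higher and 506 (3.63%) were lower in homo lenses. An unadjusted p under 0.05 was reached by 3307 of the 13938 genes, while edgeR's likelihood-ratio test called 3052 and DESeq2 1435. List counts by these measures are to be read beside those counts. The count past the threshold differed with the libraries fitted. It was 294 when only the 6 libraries were fitted and 460 to 610 when any library other than homo replicate 1 was left out. Without homo replicate 1 it was 4102, of which 1920 were higher and 2182 lower. List counts without that library are to be read beside these counts. For 1615 genes (11.6%) all homo libraries lay above all het libraries, and for 1458 genes (10.5%) all lay below. With no TMM factor the median log2 fold change over the genes tested went from 0.02 to 0.21 and the share of higher genes among those past the threshold from 56.4% to 80.1%, so changes of that size depend on the scaling. The median of 9 of the 38 gene lists described here changed sign under that or RLE scaling, and that of the other 29 did not. The 9 are the amino acid transporters, proteasome, autophagy and lysosome, lens epithelium, Notch, cluster histones, ion transport, imprinted and immediate-early lists. With library size alone 0 members passed in the proteasome, Notch, cell division, retina and pigment lists, 6 passed in the ribosomal protein list and 4 in the capsule list. Many changes were larger: 97 genes rose and 120 fell at least 4-fold. In the plot of level against change, the 2 largest rises are the stress genes *Trib3* and *Chac1*, and the largest falls are at moderate or low levels.

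**Figure D1:**
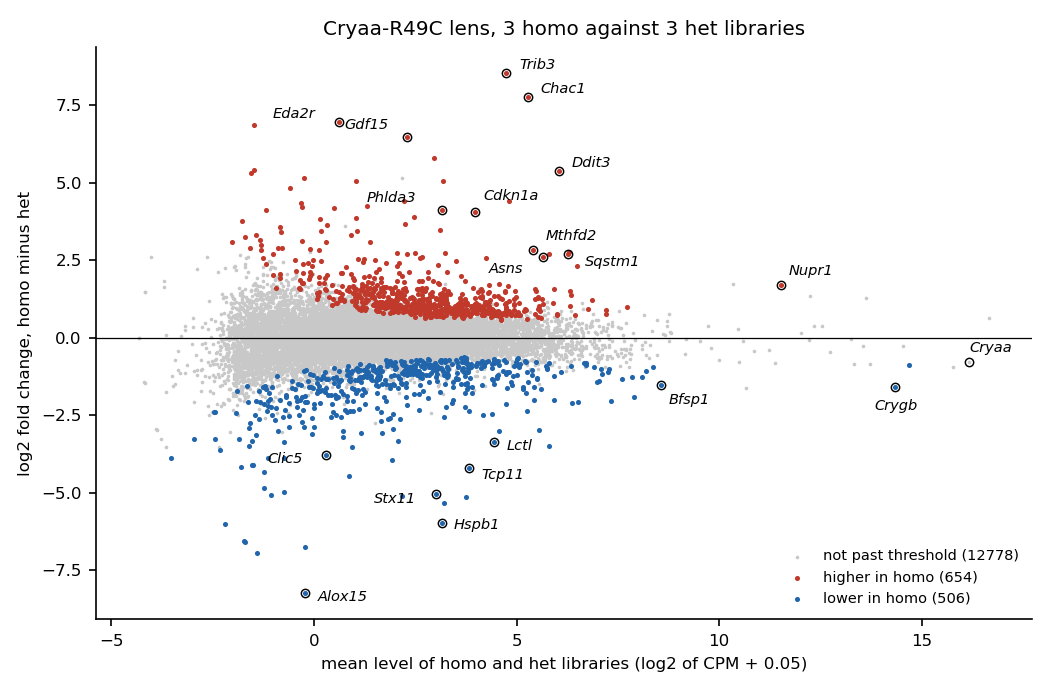
Each point is 1 of 13938 genes, with the mean level of the 6 libraries (log2 of CPM + 0.05) on the x axis and the log2 fold change of homo minus het on the y axis, and ringed genes are named. The 654 red points are higher and the 506 blue points lower in homo lenses, with *Trib3* at 8.54 and *Alox15* at -8.23 as the extremes, while *Cryaa* at the far right is not past the threshold.

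Most target genes of the integrated stress response rose, several of them from less than 1 CPM. Of the 18 members tested of a list of 19 ATF4 and CHOP stress genes, 14 rose and 0 fell, beside 4.69% higher and 3.63% lower over all genes tested. The median log2 fold change was 2.93 against 0.02 over all genes tested. In 16 of the 18 all homo libraries lay above all het libraries, against 11.6% of all genes. *Ddit3*, which encodes CHOP, was at 3.02, 3.004 and 3.19 CPM in the het libraries and 166, 109 and 110.1 CPM in the homo libraries. It rose 41.7-fold (log2 fold change 5.38, SE 0.31, adjusted p = 1.9e-10), with levels of 3.07 ± 0.103 CPM in het and 128 ± 32.9 CPM in homo lenses (mean ± SD, n = 3). *Trib3*, a pseudokinase induced by CHOP, was at 0.109, 0.158 and 0.15 CPM in the het libraries and 85.98, 42.4 and 32.4 CPM in the homo libraries and showed the largest rise of all genes (log2 fold change 8.54, SE 0.61, adjusted p = 5.12e-08). *Chac1*, whose enzyme degrades glutathione, was at 0.409, 0.285 and 0.349 CPM in the het libraries and 133, 54.1 and 45.4 CPM in the homo libraries (log2 fold change 7.77, SE 0.81, adjusted p = 3.42e-05). For these 3 genes homo replicate 1 was the highest library, although it was the homo library nearest to the het group over all genes. Without it the log2 fold change of *Chac1* was 7.13. *Gdf15*, a secreted stress hormone, was at 0.0817, 0.126 and 0.0997 CPM in the het libraries and 9.45, 8.55 and 10.6 CPM in the homo libraries (log2 fold change 6.48, SE 1.03, adjusted p = 0.00142), and here the homo libraries were nearly equal. *Adm2*, the gene of the secreted peptide adrenomedullin 2, had 0, 1 and 0 reads in the het libraries and 31, 16 and 14 reads in the homo libraries, a ratio of 63.9 (95% counting interval 11.05 to 2565) with an adjusted p of 0.00554. *Sesn2*, which restrains mTORC1 when amino acids are short, was at 2.23, 2.91 and 2.17 CPM in the het libraries and 18.7, 16.4 and 14.2 CPM in the homo libraries (log2 fold change 2.75, SE 0.32, adjusted p = 6.69e-06). The list count was 14 without any library other than homo replicate 1, 16 without that library (15 higher and 1 lower) and 14 with the 6 libraries alone.

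Regulators of the response did not all pass the threshold. *Atf4*, the gene of ATF4 itself, was at 26.1, 35.5 and 29.7 CPM in the het libraries and 84.9, 95.1 and 92.6 CPM in the homo libraries (log2 fold change 1.58, SE 0.21, adjusted p = 3.28e-05). *Nupr1*, a small stress-induced nuclear protein, was an abundant transcript already in het lenses, at 1195, 1779 and 1178 CPM in the het libraries and 3569, 4784 and 5069 CPM in the homo libraries (log2 fold change 1.69, SE 0.24, adjusted p = 9.27e-05). In both genes all homo libraries lay above all het libraries. *Atf3* was also without overlap, at 0.272, 0.285 and 0.174 CPM in the het libraries and 12.7, 7.04 and 6.2 CPM in the homo libraries, but did not pass the threshold (log2 fold change 5.14, SE 1.80, adjusted p = 0.105). *Ppp1r15a*, which encodes the GADD34 subunit that reverses eIF2α phosphorylation, was at 11.96, 20.6 and 13.01 CPM in the het libraries and 18.7, 6.32 and 9.89 CPM in the homo libraries. Its groups overlapped (log2 fold change -0.38, SE 0.31, adjusted p = 0.485), and homo replicates 2 and 3 were its lowest libraries.

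The promoters of these genes are shown because ATF4 acts with C/EBP proteins on a composite site, for which the letters TGATGNAA were searched on both strands. The windows run from 250 bases before to 50 bases after the RefSeq start (GRCm38.p6), and genes were matched by symbol. The letters occur in 7 of 18 matched ATF4 and CHOP stress genes, in 5 of 12 cytosolic aminoacyl-tRNA synthetase genes, in 4 of 16 genes of serine, asparagine, proline and folate synthesis and in 3 of 12 amino acid transporter genes. Over all 27025 genes with a window the share is 4.51%, and over the 10327 tested genes with a window it is 2.6%. Among the members that rose the letters occur in 4 of 13 stress genes, 4 of 6 synthetase genes, 1 of 6 synthesis genes and 1 of 2 transporter genes, so that the lists' other members hold them too. Among genes higher in homo lenses 28 of 504 hold the letters (5.56%) and among genes lower in homo lenses 10 of 348 (2.87%). No test was run on these shares, and a match is a run of letters that does not show a bound site. The members with the largest rises that hold it are *Trib3* (chr2:152344011-152344310, minus strand), *Chac1* (chr2:119350992-119351291, plus strand), *Asns* (chr6:7693160-7693459, minus strand) and *Iars* (chr13:49681880-49682179, plus strand), printed 5′ to 3′ along the gene's strand with the match in capitals.
Trib3: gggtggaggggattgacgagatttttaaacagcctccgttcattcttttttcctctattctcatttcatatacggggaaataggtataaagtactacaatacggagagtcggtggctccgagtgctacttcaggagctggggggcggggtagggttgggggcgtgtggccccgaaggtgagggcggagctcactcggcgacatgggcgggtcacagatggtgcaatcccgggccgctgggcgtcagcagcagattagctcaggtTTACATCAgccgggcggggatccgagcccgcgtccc
Chac1: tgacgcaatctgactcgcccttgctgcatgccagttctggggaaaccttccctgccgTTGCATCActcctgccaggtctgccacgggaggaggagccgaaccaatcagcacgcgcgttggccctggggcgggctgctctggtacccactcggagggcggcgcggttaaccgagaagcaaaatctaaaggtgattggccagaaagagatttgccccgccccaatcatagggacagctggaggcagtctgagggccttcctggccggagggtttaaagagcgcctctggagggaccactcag
Asns: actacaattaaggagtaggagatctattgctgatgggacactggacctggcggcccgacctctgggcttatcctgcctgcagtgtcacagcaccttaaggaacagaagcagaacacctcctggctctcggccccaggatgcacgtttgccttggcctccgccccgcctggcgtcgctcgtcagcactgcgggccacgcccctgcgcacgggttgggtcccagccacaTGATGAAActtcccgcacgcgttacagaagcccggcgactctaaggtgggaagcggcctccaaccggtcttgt
Iars: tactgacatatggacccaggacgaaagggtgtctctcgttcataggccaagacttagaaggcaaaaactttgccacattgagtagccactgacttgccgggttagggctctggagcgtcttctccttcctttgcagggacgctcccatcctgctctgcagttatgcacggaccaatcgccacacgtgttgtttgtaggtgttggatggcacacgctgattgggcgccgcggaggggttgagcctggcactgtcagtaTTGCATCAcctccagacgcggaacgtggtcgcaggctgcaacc
The match lies 193 bases before the start in *Chac1* and 23 bases before it in *Asns*, and 15 bases after the start in *Trib3* and 8 bases after it in *Iars*. In *Trib3*, *Chac1* and *Iars* it reads on the reverse strand (TTACATCA or TTGCATCA), and in *Asns* it reads forward (TGATGAAA). The windows of *Ddit3*, *Gdf15* and *Sesn2* hold no match.

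**Figure D2:**
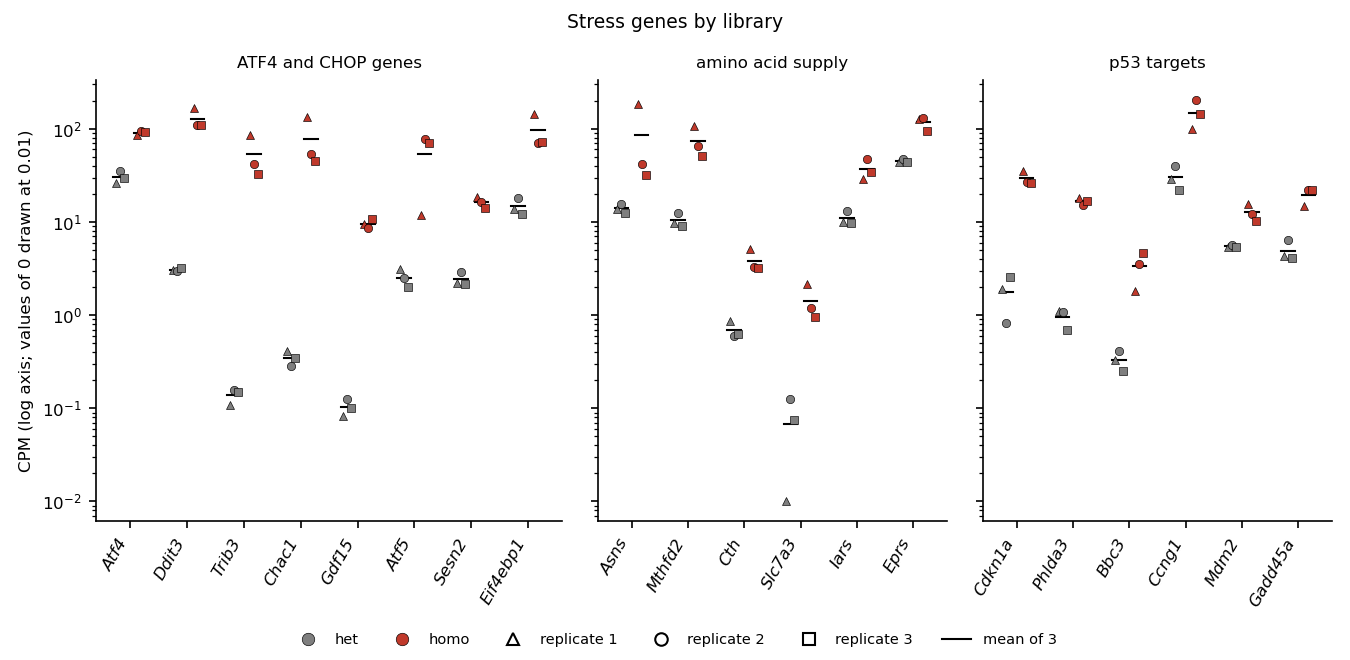
CPM on a log axis for 20 stress genes, with grey marks for the 3 het and red marks for the 3 homo libraries, a mark shape for each replicate number and a bar for the mean of 3. The het libraries of *Trib3*, *Chac1* and *Gdf15* lie under 1 CPM and the homo libraries above 8 CPM. Homo replicate 1 (triangles) stands above the other homo libraries for *Asns* and below them for *Atf5*, and the het library of *Slc7a3* at 0 is drawn at 0.01.

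Some genes of amino acid supply rose as well. Among 18 genes for the synthesis of serine, asparagine, proline and folate-carried carbon units, 8 rose and 1 fell (median log2 fold change 0.49). Over all genes tested 4.69% were higher and 3.63% lower. *Mthfd2*, a mitochondrial folate enzyme, was at 9.86, 12.5 and 9.12 CPM in the het libraries and 107, 65.2 and 50.99 CPM in the homo libraries (log2 fold change 2.83, SE 0.25, adjusted p = 1.67e-07). *Asns*, asparagine synthetase, was at 13.8, 15.6 and 12.6 CPM in the het libraries and 184, 42.2 and 32.2 CPM in the homo libraries (log2 fold change 2.62, SE 0.46, adjusted p = 0.00182). All homo libraries lay above the het libraries, but replicate 1 was far above the other homo libraries, and the log2 fold change of *Asns* without it was 1.41. *Cth*, which makes cysteine from cystathionine, was at 0.872, 0.601 and 0.623 CPM in the het libraries and 5.07, 3.3 and 3.19 CPM in the homo libraries (log2 fold change 2.46, SE 0.48, adjusted p = 0.00247). *Aldh1l2*, another mitochondrial folate enzyme, was at 0.79, 0.443 and 0.573 CPM in the het libraries and 2.42, 4.12 and 4.03 CPM in the homo libraries (log2 fold change 2.53, SE 0.41, adjusted p = 3.46e-04). *Pycr1*, a proline synthesis enzyme named after its values were seen, was the member that fell, at 3.08, 2.62 and 2.22 CPM in the het libraries and 1.59, 0.691 and 0.646 CPM in the homo libraries (log2 fold change -1.40, SE 0.32, adjusted p = 0.0077), lost with 1 of the 6 libraries left out. Within this list the directions were thus mixed, and homo replicate 1 was the highest homo library for *Mthfd2*, *Asns*, *Cth* and *Pycr1* alike.

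A few carriers that bring amino acids into the cell rose. Of 17 amino acid transporter genes 3 rose (17.6%, against 4.69% higher over all genes tested) and 0 fell (median −0.10), and without homo replicate 1 there were 4 higher and 1 lower. *Slc7a3*, a cationic amino acid transporter, was at 0, 0.126 and 0.0748 CPM in the het libraries and 2.14, 1.19 and 0.951 CPM in the homo libraries (log2 fold change 4.35, SE 0.71, adjusted p = 4.02e-04). *Slc1a4*, a carrier of neutral amino acids, was at 3.19, 3.16 and 2.94 CPM in the het libraries and 8.61, 10.4 and 9.58 CPM in the homo libraries (log2 fold change 1.62, SE 0.27, adjusted p = 5.52e-04). *Slc7a1*, another cationic carrier, was at 3.98, 5.63 and 4.04 CPM in the het libraries and 8.85, 18.9 and 13.4 CPM in the homo libraries (log2 fold change 1.59, SE 0.26, adjusted p = 3.32e-04). Of the 17 only these 3 passed, all of them free of overlap (*Slc7a13*, described with the largest falls, is outside the list), *Slc7a3* near the limit of detection in het lenses, and its log2 fold change was 5.03 without het replicate 2.

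Of 20 cytosolic aminoacyl-tRNA synthetase genes, whose enzymes load amino acids onto tRNAs, 7 rose and 0 fell (median 0.50), beside 4.69% higher over all genes tested. In 9 all homo libraries lay above all het libraries, against 11.6% of all genes. The count was 6 to 9 with any 1 library left out and 4 with the 6 libraries alone. *Iars*, the isoleucine enzyme, was at 9.97, 13.2 and 9.85 CPM in the het libraries and 28.6, 47.3 and 34.1 CPM in the homo libraries (log2 fold change 1.74, SE 0.21, adjusted p = 1.33e-05). *Nars*, the asparagine enzyme, was at 23.3, 23.1 and 22.5 CPM in the het libraries and 62.5, 89.01 and 46.9 CPM in the homo libraries (log2 fold change 1.53, SE 0.23, adjusted p = 1.43e-04). *Aars*, the alanine enzyme, was at 9.37, 9.8 and 8.38 CPM in the het libraries and 22.3, 29.3 and 26.8 CPM in the homo libraries (log2 fold change 1.51, SE 0.19, adjusted p = 2.28e-05). These genes and *Eprs*, which loads glutamate and proline, rose by similar amounts. *Eprs* was at 44.1, 47.9 and 43.6 CPM in the het libraries and 127, 130.5 and 95.2 CPM in the homo libraries (log2 fold change 1.38, SE 0.19, adjusted p = 5.05e-05). Of the 17 mitochondrial synthetase genes (median 0.39), 0 passed the threshold in edgeR's quasi-likelihood test, 1 had an unadjusted p under 0.05, 3 were called by edgeR's likelihood-ratio test and 0 by DESeq2. Without homo replicate 1, 2 of them were higher and 2 lower. Among them *Lars2* was at 8968, 7912 and 5138 CPM in the het libraries and 3039, 16243 and 34732 CPM in the homo libraries with overlapping groups (log2 fold change 1.29, SE 0.65, adjusted p = 0.243), and its order over the 6 libraries was that of the Gm42418 share.

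Some genes of the endoplasmic reticulum rose. Of 27 genes tested for ER chaperones, sensors of unfolded protein and ER-associated degradation, 5 rose (18.5%, against 4.69% higher over all genes tested) and 0 fell (median 0.28). The count was 2 with the 6 libraries alone, 2 to 4 without any library other than homo replicate 1, and 10 without homo replicate 1, of which 4 were then lower. *Herpud1*, an adaptor of ER-associated degradation, was at 16.7, 25.8 and 16.8 CPM in the het libraries and 229, 95.9 and 83.3 CPM in the homo libraries (log2 fold change 2.78, SE 0.31, adjusted p = 3.11e-06), highest in homo replicate 1 and with a log2 fold change of 2.18 without it. *Dnajb9*, a cochaperone of BiP, was at 2.53, 3.1 and 2.99 CPM in the het libraries and 8.41, 8.49 and 9.01 CPM in the homo libraries with nearly equal homo libraries (log2 fold change 1.59, SE 0.35, adjusted p = 0.00699). The gene of BiP itself, *Hspa5*, the main ER chaperone, was at 115, 142 and 136 CPM in the het libraries and 422, 154 and 134 CPM in the homo libraries with overlapping groups (log2 fold change 0.85, SE 0.58, adjusted p = 0.402). *Atf6*, a sensor of unfolded protein, was at 3.98, 4.11 and 3.59 CPM in the het libraries and 5.84, 10.9 and 7.22 CPM in the homo libraries (log2 fold change 1.04, SE 0.25, adjusted p = 0.0119) and lost the call with 2 of the 6 libraries left out in turn. *Sel1l*, a part of the degradation complex, was at 6.67, 6.23 and 6.06 CPM in the het libraries and 9.49, 12.6 and 11.8 CPM in the homo libraries (log2 fold change 0.84, SE 0.21, adjusted p = 0.0169) and lost it with 4 of the 6.

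Most p53 target genes rose as well. Of 25 targets 15 rose and 1 fell, beside 4.69% higher and 3.63% lower over all genes tested, with a median log2 fold change of 0.999. In 18 all homo libraries lay above all het libraries, against 11.6% of all genes. *Cdkn1a*, whose product p21 stops the cell cycle, was at 1.91, 0.822 and 2.57 CPM in the het libraries and 35.3, 26.9 and 26.2 CPM in the homo libraries (log2 fold change 4.05, SE 0.63, adjusted p = 0.00101). *Phlda3*, an inhibitor of AKT, was at 1.12, 1.07 and 0.698 CPM in the het libraries and 18.2, 15.2 and 16.9 CPM in the homo libraries (log2 fold change 4.12, SE 0.38, adjusted p = 2.03e-07). The homo libraries of *Phlda3* were nearly equal, and those of *Cdkn1a* were highest in replicate 1. *Eda2r*, a receptor of the TNF receptor family, had 1, 0 and 1 reads in the het and 60, 140 and 84 reads in the homo libraries, a ratio of 149 (95% counting interval 40.8 to 1234) with an adjusted p of 9.5e-05. *Bbc3*, which encodes the proapoptotic protein PUMA, was at 0.327, 0.411 and 0.249 CPM in the het libraries and 1.83, 3.55 and 4.6 CPM in the homo libraries (log2 fold change 3.32, SE 0.49, adjusted p = 1.22e-04), and here homo replicate 1 was the lowest of its group. *Sesn1*, named after its values were seen, was the target that fell, at 16.3, 17.3 and 13.7 CPM in the het libraries and 8.85, 4.68 and 4.14 CPM in the homo libraries (log2 fold change -1.41, SE 0.27, adjusted p = 0.00209), whereas its paralog *Sesn2* rose. The count was 11 to 16 with any 1 library left out and 10 with the 6 libraries alone. The Bcl2 family, which controls the release of cytochrome c, had 2 of 13 tested members past the threshold, *Bbc3* and *Bax* (15.4%, against 8.32% of all genes tested). It had 5 higher and 1 lower without homo replicate 1, and 1 past the threshold with the 6 libraries alone. *Bax*, an effector of mitochondrial outer membrane opening, was at 16.3, 20.1 and 18.97 CPM in the het libraries and 36.6, 27.6 and 31.8 CPM in the homo libraries (log2 fold change 0.79, SE 0.19, adjusted p = 0.0112) and lost the call with 1 of the 6 libraries left out.

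Cytosolic chaperone genes past the threshold mostly fell. Of 17 cytosolic heat shock genes tested 1 rose and 3 fell (median −0.39), beside 4.69% higher and 3.63% lower over all genes tested. Without homo replicate 1 there were 2 higher and 7 lower, while 2 or 3 passed without any other library and 2 with the 6 libraries alone. *Hspb1*, which encodes the small heat shock protein Hsp27, was at 11.8, 24.9 and 15.3 CPM in the het libraries and 0.132, 0.22 and 0.532 CPM in the homo libraries (log2 fold change -5.96, SE 0.54, adjusted p = 5.71e-07), a 62.3-fold fall. *Dnajb1*, an Hsp70 cochaperone, was at 128, 188 and 129 CPM in the het libraries and 59.8, 24.9 and 22.3 CPM in the homo libraries (log2 fold change -2.06, SE 0.31, adjusted p = 1.65e-04). In both genes every homo library was below every het library. The log2 fold change of *Hspb1* was -6.62 without homo replicate 3, and that of *Dnajb1* was -2.65 without homo replicate 1. *Stip1*, which joins Hsp70 and Hsp90, was at 51.5, 64.4 and 52.8 CPM in the het libraries and 41.4, 17.98 and 22.5 CPM in the homo libraries (log2 fold change -1.04, SE 0.29, adjusted p = 0.0307), and its call was lost with 5 of the 6 libraries left out. *Hspa4*, an Hsp70 exchange factor, was at 18.6, 17.1 and 11.5 CPM in the het libraries and 23.8, 34.3 and 26.9 CPM in the homo libraries (log2 fold change 0.85, SE 0.24, adjusted p = 0.0275), and its call was lost with 4 of the 6. Of the 8 subunit genes of the CCT chaperonin, which folds actin and tubulin, 0 passed the quasi-likelihood test (3 at an unadjusted p under 0.05, 5 by the likelihood-ratio test, 0 by DESeq2), with a median of −0.59. The summed level of the 8 was 979.7 to 1262 CPM in the het libraries, 1218 CPM in homo replicate 1 and 569 and 431 CPM in homo replicates 2 and 3. Without homo replicate 1, 7 of the 8 were lower.

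Proteasome genes were lower in homo replicates 2 and 3 as a sum, while a few autophagy genes rose. Of 31 proteasome genes 2 were lower (6.45%, against 3.63% over all genes tested, median −0.24). *Psmc5*, an ATPase of the regulatory particle, was at 125, 163 and 121 CPM in the het libraries and 117, 47.96 and 57.9 CPM in the homo libraries (log2 fold change -0.88, SE 0.26, adjusted p = 0.0404). *Psma1*, of the core particle, was at 44.5, 46.7 and 47.9 CPM in the het libraries and 35.5, 25.5 and 21.9 CPM in the homo libraries (log2 fold change -0.75, SE 0.20, adjusted p = 0.0242). Both calls were lost with 5 of the 6 libraries left out. The proteasome sum was 2558 CPM in homo replicate 1 and 1367 and 1085 CPM in replicates 2 and 3, against 1857 to 2220 CPM in the het libraries. Without replicate 1, 22 of the 31 genes were lower. Of 21 autophagy and lysosome genes 3 rose (14.3%, against 4.69% higher over all genes tested) and 0 fell (median −0.01). Without homo replicate 1 there were 4 higher and 7 lower, and 1 or 2 passed without any other library and 1 with the 6 libraries alone. *Sqstm1*, the receptor p62 that carries ubiquitylated protein into autophagosomes, was at 20.3, 20.5 and 20.1 CPM in the het libraries and 86.9, 156 and 158 CPM in the homo libraries (log2 fold change 2.72, SE 0.29, adjusted p = 1.66e-06). Its het libraries were nearly identical, and all homo libraries lay far above them. *Nbr1*, a receptor related to p62, was at 22.3, 23.1 and 20.2 CPM in the het libraries and 27.5, 42.1 and 40.3 CPM in the homo libraries (log2 fold change 0.74, SE 0.20, adjusted p = 0.0213), lost with 5 of the 6 libraries left out. *Wipi1*, which binds the forming autophagosome, was at 23.6, 28.6 and 21.7 CPM in the het libraries and 46.3, 40.5 and 37.3 CPM in the homo libraries (log2 fold change 0.75, SE 0.20, adjusted p = 0.0223), lost with 3 of the 6.

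Antioxidant genes went in both directions. Of 20 genes of glutathione metabolism and the NRF2 response 3 rose and 5 fell (median −0.40), beside 4.69% higher and 3.63% lower of all genes tested. The count was 16 without homo replicate 1, 2 or 3 without any other library, and 2 with the 6 libraries alone. *Ggct*, an enzyme of glutathione breakdown, was at 51.8, 66.5 and 44.5 CPM in the het libraries and 18.7, 18.5 and 14.1 CPM in the homo libraries (log2 fold change -1.66, SE 0.23, adjusted p = 4.57e-05). *Srxn1*, which repairs oxidised peroxiredoxins, was at 1.77, 2.09 and 1.5 CPM in the het libraries and 4.47, 4.997 and 6.84 CPM in the homo libraries (log2 fold change 1.60, SE 0.30, adjusted p = 0.00169). Homo replicate 1 stood with its group in these 2 genes, and within or close to the het range in the next 3. *Gpx1*, glutathione peroxidase, was at 269, 348 and 223 CPM in the het libraries and 219, 69.3 and 47.1 CPM in the homo libraries (log2 fold change -1.32, SE 0.37, adjusted p = 0.0294) and lost the call with 4 of the 6 libraries left out, with a log2 fold change of -2.26 without homo replicate 1. *Gclm*, a subunit of the enzyme that starts glutathione synthesis, was at 9.7, 8.32 and 5.21 CPM in the het libraries and 9.91, 22.3 and 17.8 CPM in the homo libraries (log2 fold change 1.11, SE 0.33, adjusted p = 0.0412) and lost it with 5 of the 6. *Hmox1*, heme oxygenase, was abundant at 414, 447 and 322 CPM in the het libraries and 313, 129 and 120.3 CPM in the homo libraries (log2 fold change -1.07, SE 0.31, adjusted p = 0.036) and lost it with 5 of the 6, with a log2 fold change of -1.66 without homo replicate 1.

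Other genes among the 10 largest rises belong to none of these lists. *Gm14963*, a predicted gene on chromosome 19, was at 0.354, 0.316 and 0.15 CPM in the het libraries and 17.5, 16.3 and 11.7 CPM in the homo libraries (log2 fold change 5.79, SE 0.40, adjusted p = 1.04e-08). *P2rx3*, an ATP-gated ion channel known from sensory neurons, had 1, 3 and 0 reads in the het and 89, 32 and 43 reads in the homo libraries, a ratio of 42.95 (95% counting interval 16.5 to 159.5) with an adjusted p of 1.36e-04. *9530053A07Rik*, a gene of chromosome 7, had 0, 0 and 1 reads in the het and 39, 17 and 11 reads in the homo libraries, a ratio of 70.2 (95% counting interval 12.2 to 2813) with an adjusted p of 0.00177. The largest rises were chosen among genes without overlap between the groups, so the lack of overlap in these 3 and *Glrp1* was fixed by that choice. *Glrp1*, a glutamine repeat protein, had no read in the het libraries and 23, 27 and 13 reads in the homo libraries, at least 7.36-fold higher when the het libraries are set at the floor of 3 counts per library (adjusted p = 0.00514, and 0.438 by DESeq2).

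Of the crystallin genes, whose products fill the fibre cell, a minority passed the threshold. Of the 16 tested 0 rose and 2 fell (12.5%, against 3.63% lower over all genes tested, with 7 called by DESeq2). In 6 all homo libraries lay below all het libraries, against 10.5% of all genes (list median −0.61). *Crygb* was at 27779, 40300 and 25326 CPM in the het libraries and 11128, 12949 and 7327 CPM in the homo libraries (log2 fold change -1.57, SE 0.28, adjusted p = 0.00108), with no overlap. *Crybb1* was at 29930, 43741 and 28723 CPM in the het libraries and 25940, 14007 and 16256 CPM in the homo libraries (log2 fold change -0.87, SE 0.27, adjusted p = 0.0467) and lost the call with 5 of the 6 libraries left out. *Cryba1* was at 63231, 93405 and 63208 CPM in the het libraries and 64964, 31369 and 17232 CPM in the homo libraries (log2 fold change -0.95, SE 0.35, adjusted p = 0.0936), and homo replicates 2 and 3 alone lay below the het range. *Cryab*, whose product forms mixed oligomers with αA-crystallin, was at 6317, 10635 and 6850 CPM in the het libraries and 5675, 6369 and 5448 CPM in the homo libraries (log2 fold change -0.44, SE 0.26, adjusted p = 0.316). *Crygd* was at 5028, 6627 and 3886 CPM in the het libraries and 3042, 10310 and 6731 CPM in the homo libraries (log2 fold change 0.37, SE 0.33, adjusted p = 0.537), highest in homo replicate 2. The crystallins thus differed among themselves, and most groups overlapped. For *Cryaa* the log2 fold change without homo replicate 1 was -1.42, with an adjusted p of 4.83e-04. Without that library 7 crystallins passed the threshold, all of them lower, and without any other library 1 did. In bulk RNA, fewer fibre cells and less RNA per fibre cell cannot be told apart.

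Among genes of the fibre membrane, cytoskeleton and organelle loss, several fell in every homo library. Of 19 tested 8 fell and 0 rose (median −0.88), beside 3.63% lower over all genes tested. In 12 all homo libraries lay below all het libraries, against 10.5% of all genes. The count was 7 to 11 with any 1 library left out and 5 with the 6 libraries alone. *Lctl*, a klotho-family membrane protein of the lens, was at 29.6, 57.3 and 32.3 CPM in the het libraries and 4.21, 4.09 and 3.23 CPM in the homo libraries (log2 fold change -3.36, SE 0.29, adjusted p = 6.91e-08), a 10.3-fold fall with nearly equal homo libraries. *Birc7*, an inhibitor of apoptosis, was at 80.2, 134 and 77.6 CPM in the het libraries and 29.00, 24.5 and 19.7 CPM in the homo libraries (log2 fold change -1.99, SE 0.26, adjusted p = 3.25e-05). *Dnase2b*, the nuclease that degrades fibre cell DNA, was at 59.8, 101 and 58.6 CPM in the het libraries and 34.9, 21.8 and 13.2 CPM in the homo libraries (log2 fold change -1.65, SE 0.29, adjusted p = 9.15e-04). *Tmod1*, which caps actin filaments, was at 16.1, 21.2 and 14.03 CPM in the het libraries and 7.69, 2.29 and 2.59 CPM in the homo libraries (log2 fold change -2.01, SE 0.36, adjusted p = 0.00135). The 4 genes show no overlap between the groups, and the log2 fold change of *Tmod1* was -2.81 without homo replicate 1. *Bfsp1*, which encodes the beaded filament protein filensin, was at 602, 701 and 373 CPM in the het libraries and 106, 273 and 201 CPM in the homo libraries (log2 fold change -1.53, SE 0.34, adjusted p = 0.00662), lowest in homo replicate 1. Its partner *Bfsp2* was at 2357, 3048 and 1938 CPM in the het libraries and 1177, 586 and 640.0 CPM in the homo libraries, without overlap but not past the threshold (log2 fold change -1.61, SE 0.66, adjusted p = 0.16). Of the fibre's channel genes, *Mip* and *Gja3* did not pass. The water channel gene *Mip* was at 241, 314 and 205 CPM in the het libraries and 181, 193 and 171 CPM in the homo libraries (log2 fold change -0.48, SE 0.22, adjusted p = 0.182). The gap junction gene *Gja3* was at 146, 198 and 132 CPM in the het libraries and 185, 74.5 and 50.95 CPM in the homo libraries (adjusted p = 0.264).

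**Figure D3:**
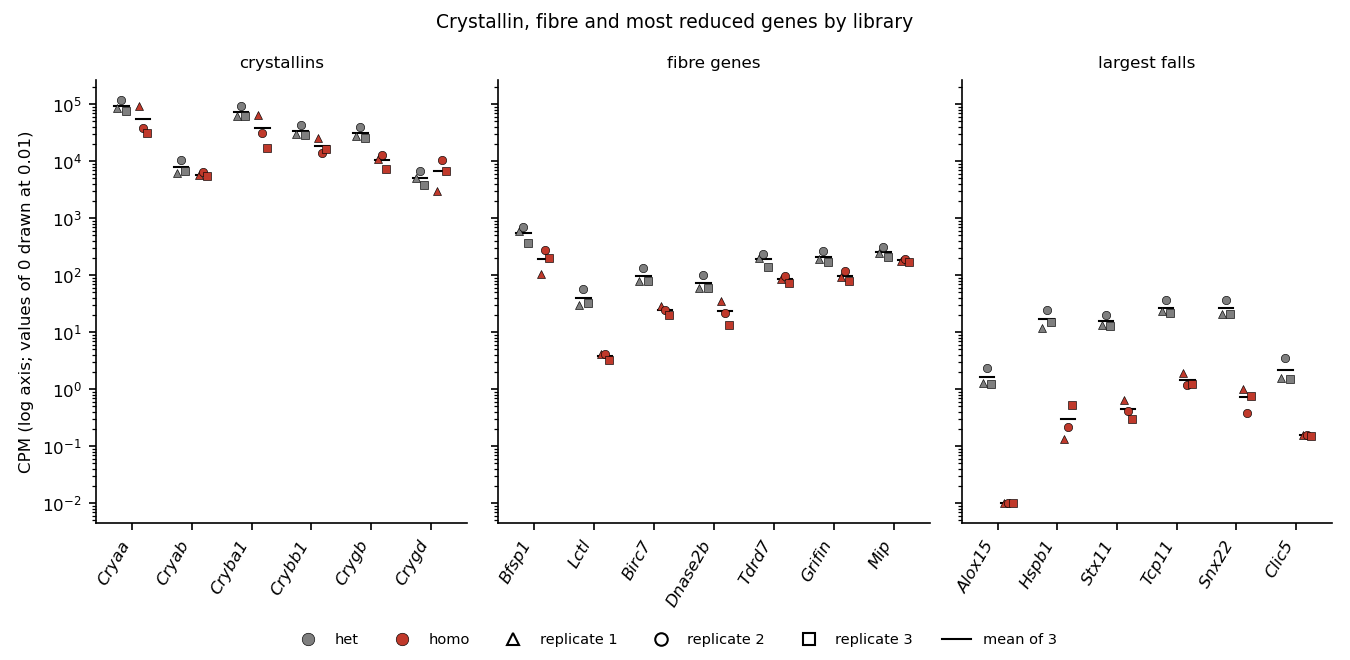
CPM on a log axis for 6 crystallins, 7 fibre genes and 6 genes with large falls, with grey marks for the 3 het and red marks for the 3 homo libraries and a bar for the mean of 3. Homo replicate 1 of *Cryaa* lies within the het range, whereas all homo libraries of *Hspb1*, *Stx11*, *Tcp11* and *Snx22* lie at least 10-fold below the het libraries, and *Alox15*, at 0 in all homo libraries, is drawn at 0.01.

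The genes with the largest falls, chosen among genes without overlap between the groups, were close to lost in all homo libraries. *Alox15*, a lipoxygenase that oxidises membrane lipids, had 47, 75 and 49 reads in the het libraries and none in the homo libraries, at least 17.8-fold lower with the homo libraries at the floor of 3 counts per library (adjusted p = 3.2e-07). On the same basis *Bpifa5*, of the BPI fold family, was at least 7.21-fold lower, with 18, 25 and 28 reads in the het libraries (adjusted p = 2.87e-06). *Slc7a13*, an amino acid transporter, was at least 5.64-fold lower, with 12, 26 and 16 reads (adjusted p = 4.94e-05). No homo library held a read of these 3 genes, nor of the next 2. *A630095N17Rik* was at least 5.47-fold lower, with 23, 19 and 11 reads in the het libraries (adjusted p = 0.0023). *Pax4*, known as an islet transcription factor, was at least 3.71-fold lower, with 10, 11 and 16 reads (adjusted p = 0.00227). It had 2, 23 and 4 reads in the WT libraries and was not tested when the het and homo libraries alone were fitted. *Ms4a5*, a membrane-spanning protein, had 56, 63 and 52 reads in the het and 1, 0 and 0 reads in the homo libraries, so that het exceeded homo by a ratio of 163 (95% counting interval 28.9 to 6484), with an adjusted p of 1.62e-07.

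Genes with higher levels in het lenses gave more precise folds. *Stx11*, a syntaxin of membrane fusion, was at 13.6, 20.3 and 12.9 CPM in the het libraries and 0.639, 0.409 and 0.304 CPM in the homo libraries (log2 fold change -5.05, SE 0.30, adjusted p = 1.9e-10). *Tcp11*, known from testis, was at 23.3, 36.04 and 21.3 CPM in the het libraries and 1.89, 1.19 and 1.22 CPM in the homo libraries (log2 fold change -4.20, SE 0.29, adjusted p = 2.48e-09), an 18.4-fold fall. *Snx22*, a sorting nexin, was at 20.6, 36.8 and 20.8 CPM in the het libraries and 1.01, 0.377 and 0.76 CPM in the homo libraries (log2 fold change -5.15, SE 0.40, adjusted p = 3.08e-08). In these genes homo replicate 1 stood with the other homo libraries and not with the het libraries. *Ceacam10*, a cell adhesion protein, was at 15.6, 22.01 and 15.9 CPM in the het libraries and 0.617, 0.189 and 0.494 CPM in the homo libraries (log2 fold change -5.32, SE 0.37, adjusted p = 2.48e-09). *Zfyve28*, an endosomal regulator of EGF receptor signalling, was at 8.09, 10.3 and 7.68 CPM in the het libraries and 0.286, 0.189 and 0.266 CPM in the homo libraries (log2 fold change -5.09, SE 0.30, adjusted p = 1.9e-10). *Ermap*, an erythroblast membrane protein, was at 6.18, 9.14 and 5.71 CPM in the het libraries and 0.639, 0.346 and 0.304 CPM in the homo libraries (log2 fold change -3.95, SE 0.33, adjusted p = 6.46e-08). The highest homo library of each was below the lowest het library. For *Snx22*, *Ceacam10* and *Zfyve28* this was a condition of their choice among the largest falls. *Stx11*, *Tcp11* and *Ermap* were named by the study as lower in homo than in WT lenses, from these same homo libraries.

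Abundant transcripts outside the crystallins also fell. *Eif5b*, an initiation factor that joins ribosomal subunits, was at 333, 472 and 320.3 CPM in the het libraries and 61.4, 129 and 109 CPM in the homo libraries (log2 fold change -1.91, SE 0.31, adjusted p = 3.4e-04). *Hmgn3*, a nucleosome-binding protein, was at 350.3, 492 and 311 CPM in the het libraries and 170.1, 159 and 156 CPM in the homo libraries (log2 fold change -1.25, SE 0.24, adjusted p = 0.00181). *Fabp5*, a fatty acid carrier, was at 230.2, 440.2 and 312 CPM in the het libraries and 103, 166 and 138 CPM in the homo libraries (log2 fold change -1.27, SE 0.28, adjusted p = 0.00662). All 3 were lower in every homo library, with *Eif5b* lowest in homo replicate 1. *Tuba1a*, an α-tubulin, was at 423, 450.3 and 424 CPM in the het libraries and 276, 243 and 154 CPM in the homo libraries (log2 fold change -0.95, SE 0.22, adjusted p = 0.00848), lost with 1 of the 6 libraries left out.

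The genes that the study reported as changed in het against WT lenses, from these same libraries, are given with their WT levels for context. No test of WT was made here. A difference of het from WT was fixed by that choice, and the homo against het contrast uses the same het libraries again. *Clic5*, a chloride intracellular channel, was at 6.22 to 8.68 CPM in WT lenses and at 1.58, 3.51 and 1.5 CPM in the het libraries and 0.154, 0.157 and 0.152 CPM in the homo libraries (log2 fold change -3.77, SE 0.36, adjusted p = 4.05e-07 for homo against het), so that the WT, het and homo ranges did not overlap and lay in that order. *Rsad2*, an interferon-induced antiviral enzyme, was at 4.26 to 6.21 CPM in WT lenses and at 1.77, 3.73 and 1.17 CPM in the het libraries and 0.352, 0.723 and 0.684 CPM in the homo libraries (log2 fold change -1.94, SE 0.36, adjusted p = 0.00129) and kept the same order without overlap, with a log2 fold change of -1.35 without het replicate 2. *Aebp1*, which regulates adipocytes and the extracellular matrix, was at 8.44 to 11.5 CPM in WT lenses and at 3.95, 4.87 and 2.97 CPM in the het libraries and 1.39, 1.82 and 3.38 CPM in the homo libraries, and the homo and het groups overlapped (log2 fold change -0.85, SE 0.31, adjusted p = 0.093). *Rgs4*, a regulator of G-protein signalling, was at 2.34 to 4.1 CPM in WT lenses and at 6.02, 10.6 and 8.999 CPM in the het libraries and 2.16, 2.7 and 2.36 CPM in the homo libraries (log2 fold change -1.83, SE 0.30, adjusted p = 4.31e-04), so that het lenses held the highest levels. *Dynlt1b*, a dynein light chain with near-identical neighbours that can share its reads, was at 1.3 to 2.51 CPM in WT lenses and at 4.3, 7.52 and 8.002 CPM in the het libraries and 8.37, 3.46 and 4.11 CPM in the homo libraries (log2 fold change -0.31, SE 0.39, adjusted p = 0.677).

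Lists of epithelial and regulatory genes had at most 3 members past the threshold each. Of 11 lens epithelium genes tested 2 were higher and 1 fell (27.3% in all, against 8.32% of all genes tested, median −0.02), and without homo replicate 1 there were 3 higher and 2 lower. *Gja1*, connexin 43 of the epithelium, was at 21.2, 22.4 and 19.05 CPM in the het libraries and 10.2, 6.54 and 3.88 CPM in the homo libraries (log2 fold change -1.60, SE 0.28, adjusted p = 7.98e-04). *Itga6*, a laminin receptor subunit, was at 21.6, 23.7 and 14.3 CPM in the het libraries and 19.3, 56.1 and 48.4 CPM in the homo libraries (log2 fold change 1.05, SE 0.32, adjusted p = 0.0467). *Aqp1*, the epithelial water channel, was at 3.46, 2.97 and 3.81 CPM in the het libraries and 3.04, 11.1 and 8.56 CPM in the homo libraries (log2 fold change 1.14, SE 0.33, adjusted p = 0.0329). For *Itga6* and *Aqp1* homo replicate 1 lay within the het range, and each call was lost with 5 of the 6 libraries left out. Of 18 lens transcription factor genes 2 were higher and 0 lower (11.1%), and without homo replicate 1 there were 3 higher and 2 lower. *Gata3* was at 3.84, 5.88 and 3.61 CPM in the het libraries and 8.08, 9.21 and 9.73 CPM in the homo libraries (log2 fold change 1.02, SE 0.26, adjusted p = 0.0158), lost with 4 of the 6. *Pitx3* was at 6.62, 7.87 and 4.31 CPM in the het libraries and 7.2, 15.7 and 16.7 CPM in the homo libraries (log2 fold change 1.07, SE 0.33, adjusted p = 0.0487), with overlap and lost with 5 of the 6. Of 14 Notch pathway genes 1 was lower (7.14%), *Lfng*, a glycosyltransferase of Notch, at 3.46, 3.41 and 2.97 CPM in the het libraries and 1.1, 1.35 and 1.98 CPM in the homo libraries (log2 fold change -1.17, SE 0.36, adjusted p = 0.0446), lost with 5 of the 6. Of 15 FGF receptor and feedback genes 0 passed the quasi-likelihood test (2 at an unadjusted p under 0.05, 2 by the likelihood-ratio test, 0 by DESeq2), and 2 were higher without homo replicate 1.

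Cell division genes past the threshold were all lower. Of 33 tested 5 were lower (15.2%, against 3.63% over all genes tested) and 0 higher (median −0.65), and in 16 all homo libraries lay below all het libraries, against 10.5% of all genes. The count was 12 without homo replicate 1, 0 to 4 without any other library, 0 with the 6 libraries alone and 0 with library size alone. *Ccnd1*, cyclin D1, was at 80.8, 40.5 and 92.5 CPM in the het libraries and 37.9, 32.6 and 37.00 CPM in the homo libraries (log2 fold change -0.99, SE 0.26, adjusted p = 0.0194). *Ccnb1*, cyclin B1, was at 3.81, 2.78 and 5.86 CPM in the het libraries and 2.64, 1.29 and 1.29 CPM in the homo libraries (log2 fold change -1.24, SE 0.34, adjusted p = 0.0256). *Ccna2*, cyclin A2, was at 11.4, 8.06 and 14.2 CPM in the het libraries and 5.64, 5.28 and 6.39 CPM in the homo libraries (log2 fold change -0.96, SE 0.27, adjusted p = 0.0269). Het replicate 2 was the lowest het library for these 3, whose calls were each lost with 4 of the 6 libraries left out. *Aurkb*, a mitotic kinase, was at 6.76, 5.19 and 7.78 CPM in the het libraries and 3.37, 2.33 and 3.8 CPM in the homo libraries (log2 fold change -1.06, SE 0.33, adjusted p = 0.0486), lost with 5 of the 6. The summed level of the list was 419, 345 and 483 CPM in the het and 341, 339.8 and 326 CPM in the homo libraries. Retina and pigment epithelium markers, whose sums are given with those lists, had the same order over the het libraries, and their part in the cell division result was not tested. Of 67 cluster histone genes 29 could be tested, 2 higher and 1 lower past the threshold (10.3% in all, near the 8.32% of all genes tested). Without homo replicate 1, 5 were higher and 1 lower, beside 1920 higher and 2182 lower of all 13938 genes tested. *Hist2h4*, which has near-identical copies that can share its reads, was at 0.463, 0.759 and 0.523 CPM in the het libraries and 2.29, 1.54 and 1.41 CPM in the homo libraries (log2 fold change 1.59, SE 0.47, adjusted p = 0.0388). *Hist3h2a* was at 5.83, 5.31 and 5.51 CPM in the het libraries and 7.73, 10.2 and 8.97 CPM in the homo libraries (log2 fold change 0.69, SE 0.21, adjusted p = 0.0473). Its neighbour *Hist3h2ba* went the other way, at 11.8, 11.95 and 8.4 CPM in the het libraries and 4.91, 6.63 and 7.49 CPM in the homo libraries (log2 fold change -0.76, SE 0.23, adjusted p = 0.039). The histone calls were lost with 3 to 6 of the 6 libraries left out.

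Summed markers of vessels and macrophages were higher in homo replicates 2 and 3 than in the other 4 libraries. Of 14 vessel markers 6 were higher (42.9%, against 4.69% of all genes tested) and 0 lower (median 1.36), and in 4 all homo libraries lay above all het libraries, against 11.6% of all genes. Each of the 14 had reads in all 6 libraries. The summed level of the 14 was 61.0, 72.5 and 75.5 CPM in the het libraries, 72.1 CPM in homo replicate 1 and 242.8 and 215.6 CPM in homo replicates 2 and 3. *Cdh5*, the cadherin of endothelial junctions, was at 1.5, 1.83 and 1.89 CPM in the het libraries and 1.87, 16.5 and 13.1 CPM in the homo libraries (log2 fold change 2.58, SE 0.50, adjusted p = 0.00328). *Vwf*, von Willebrand factor, was at 1.66, 1.52 and 1.65 CPM in the het libraries and 1.89, 10.1 and 8.63 CPM in the homo libraries (log2 fold change 2.08, SE 0.47, adjusted p = 0.00795), lost with 1 of the 6 libraries left out. *Tie1*, an endothelial receptor, was at 1.17, 1.11 and 1.07 CPM in the het libraries and 1.43, 5.22 and 6.31 CPM in the homo libraries (log2 fold change 1.94, SE 0.50, adjusted p = 0.0183), lost with 5 of the 6. In each of these genes homo replicate 1 was at or near the het level, as it was for *Flt1*. *Flt1*, a VEGF receptor, was at 3.65, 3.45 and 4.14 CPM in the het libraries and 5.18, 16.9 and 16.4 CPM in the homo libraries (log2 fold change 1.77, SE 0.39, adjusted p = 0.00662). The count of vessel markers was 12 without homo replicate 1, 2 to 5 without any other library and 1 with the 6 libraries alone.

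For macrophage and microglia markers homo replicate 1 lay between the het libraries and the other homo libraries as a sum. Of 15 tested 3 were higher and 0 lower (median 1.26), beside 4.69% higher of all genes tested, and in 10 all homo libraries lay above all het libraries, against 11.6% of all genes. Their sum was 14.2, 18.4 and 25.03 CPM in the het and 30.2, 56.8 and 59.7 CPM in the homo libraries. *Mrc1*, the mannose receptor, was at 1.17, 1.68 and 2.47 CPM in the het libraries and 2.97, 10.2 and 5.93 CPM in the homo libraries (log2 fold change 1.84, SE 0.47, adjusted p = 0.0183). *C1qc*, a complement chain, was at 0.981, 1.23 and 1.84 CPM in the het libraries and 2.4, 4.34 and 5.78 CPM in the homo libraries (log2 fold change 1.61, SE 0.48, adjusted p = 0.0374). *C1qa*, another complement chain, was at 1.91, 1.99 and 2.27 CPM in the het libraries and 3.02, 5.85 and 8.02 CPM in the homo libraries (log2 fold change 1.44, SE 0.41, adjusted p = 0.0323). These calls were lost with 3 to 5 of the 6 libraries left out, while 11 markers passed without homo replicate 1. A regressing vessel network surrounds the lens at this age, and the part of such cells in the other results was not tested.

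Of the 6 libraries, homo replicates 2 and 3 also had the highest levels of RNAs that lack poly-A tails, although the libraries were made from poly-A RNA. The sum of 4 such RNAs was 46.7 and 29.7 CPM in these, 4.81 to 7.77 CPM in the other 4 and 6.45 to 9.19 CPM in the WT libraries. Of 4 tested 3 were higher, beside 4.69% of all genes tested. The count was 2 with the 6 libraries alone, 4 without homo replicate 1 and 1 or 2 without any other library. *Rn7sk*, an RNA that restrains transcription elongation, was at 2.81, 2.53 and 2.74 CPM in the het libraries and 4.69, 24.6 and 12.02 CPM in the homo libraries (log2 fold change 2.35, SE 0.44, adjusted p = 0.00267), with a log2 fold change of 1.62 without homo replicate 2. *Rpph1*, the RNA of ribonuclease P, was at 0.872, 1.42 and 2.02 CPM in the het libraries and 2.42, 14.1 and 12.7 CPM in the homo libraries (log2 fold change 2.75, SE 0.62, adjusted p = 0.0139), lost with 4 of the 6 libraries left out. *Rmrp*, a related ribozyme RNA, was at 0.817, 0.632 and 0.548 CPM in the het libraries and 0.485, 7.32 and 4.07 CPM in the homo libraries (log2 fold change 2.55, SE 0.69, adjusted p = 0.0285), lost with 5 of the 6 and with a log2 fold change of 1.74 without homo replicate 2. Their part in the other differences was not tested.

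In the retina list and the pigment epithelium list at most 2 markers each passed, and no erythroid, mesenchyme or cornea marker passed. Of 20 retina markers 1 was lower, near the 3.63% of all genes tested, and the list sum was 120.2, 55.6 and 191.4 CPM in the het and 61.0, 54.8 and 89.3 CPM in the homo libraries. *Elavl4*, an RNA-binding protein of neurons, was at 4.79, 3.67 and 5.86 CPM in the het libraries and 1.61, 1.6 and 2.4 CPM in the homo libraries (log2 fold change -1.36, SE 0.38, adjusted p = 0.0268), lost with 3 of the 6 libraries left out. Of 11 pigment and ciliary epithelium markers 2 were lower (18.2%, against 3.63% of all genes tested), each lost with 5 of the 6, and 6 were lower without homo replicate 1. Their sum was 53.5, 42.1 and 95.3 CPM in the het and 39.2, 32.3 and 39.1 CPM in the homo libraries. *Pmel*, a melanosome protein, was at 8.69, 9.17 and 9.55 CPM in the het libraries and 5.57, 2.11 and 1.67 CPM in the homo libraries (log2 fold change -1.53, SE 0.44, adjusted p = 0.0375), with a log2 fold change of -2.27 without homo replicate 1. *Mitf*, the pigment cell regulator, was at 4.85, 7.02 and 4.69 CPM in the het libraries and 3.55, 3.02 and 3.27 CPM in the homo libraries (log2 fold change -0.75, SE 0.22, adjusted p = 0.0373). Of 5 erythroid markers tested 0 passed (0 at an unadjusted p under 0.05, 1 by the likelihood-ratio test, 0 by DESeq2), with sums of 47.1, 103.1 and 77.4 CPM in the het and 41.3, 149.2 and 79.4 CPM in the homo libraries. Of 5 mesenchyme and cornea markers 0 passed (1 at an unadjusted p under 0.05, 1 by the likelihood-ratio test, 0 by DESeq2).

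The homo libraries can be set against each other gene by gene. Over the 654 higher genes homo replicate 1 was nearer to the het mean than to the mean of homo replicates 2 and 3 in 338 (51.7%), and over the 506 lower genes in 173 (34.2%), on a scale of log2 of CPM + 0.1. It was as far from het as replicates 2 and 3, or farther, in 100 higher and 137 lower genes. In the plot of homo replicate 1 against replicates 2 and 3, most stress and p53 genes lie near the diagonal and the vessel markers near the horizontal zero line.

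**Figure D4:**
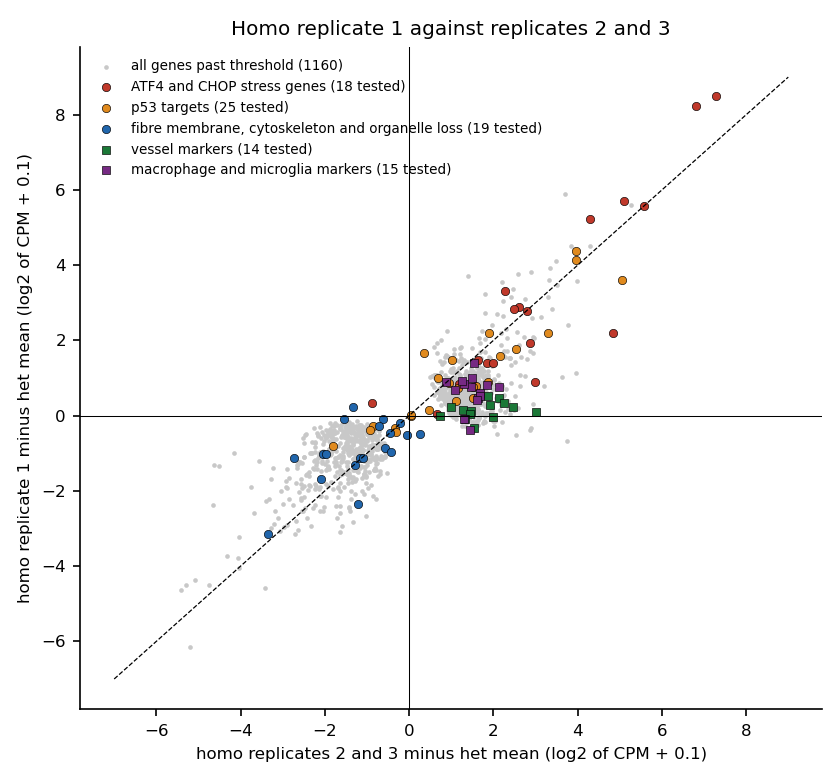
Each point is a gene, with the mean of homo replicates 2 and 3 minus the het mean on the x axis and homo replicate 1 minus the het mean on the y axis, both as log2 of CPM + 0.1. The 1160 genes past the threshold are grey, 5 lists are coloured with all tested members, and the dashed line marks equal differences. Most of the 18 ATF4 and CHOP genes lie near the dashed line and the 14 vessel markers stay close to 0 on the y axis.

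Housekeeping and matrix lists had at most 2 members past the threshold each, beside 8.32% of all genes tested. With homo replicate 1 left out, 1920 of all 13938 genes tested were higher and 2182 lower. Of 76 cytosolic ribosomal protein genes 1 was higher, and without homo replicate 1 22 were higher and 12 lower. The member past the threshold was *Rpl12*, whose reads can be shared with pseudogenes, at 2.12, 2.4 and 1.42 CPM in the het libraries and 3.92, 6.07 and 6.46 CPM in the homo libraries (log2 fold change 1.47, SE 0.31, adjusted p = 0.00535). Of 8 mitochondrially encoded mRNAs tested 1 was lower, although the list median was 0.31, and without homo replicate 1 there were 4 higher and 1 lower. The gene past the threshold was *mt-Nd3* at 0.926, 0.854 and 1.97 CPM in the het libraries and 0.33, 0.22 and 0.076 CPM in the homo libraries (log2 fold change -2.49, SE 0.57, adjusted p = 0.00827), lost with 1 of the 6 libraries left out. Of 21 glucose uptake and glycolysis genes 1 was higher and 1 lower, and without homo replicate 1 there were 4 higher and 5 lower. *Pdk1*, which inhibits pyruvate dehydrogenase, was at 6.07, 5.37 and 5.41 CPM in the het libraries and 8.68, 10.4 and 8.02 CPM in the homo libraries (log2 fold change 0.68, SE 0.20, adjusted p = 0.0371), lost with 5 of the 6. *Aldoc*, an aldolase, was at 60.04, 88.1 and 59.4 CPM in the het libraries and 48.5, 33.3 and 29.8 CPM in the homo libraries (log2 fold change -0.89, SE 0.23, adjusted p = 0.018), lost with 3 of the 6. Of 23 cholesterol synthesis genes 0 passed the quasi-likelihood test (2 at an unadjusted p under 0.05, 6 by the likelihood-ratio test, 1 by DESeq2), with a median of −0.26. Without homo replicate 1, 7 of the 23 were lower and the median was −0.56. Of 17 capsule genes 1 was higher, the laminin gene *Lamb1* at 16.3, 20.1 and 11.9 CPM in the het libraries and 19.95, 39.3 and 27.1 CPM in the homo libraries (log2 fold change 0.84, SE 0.25, adjusted p = 0.0359), with overlap and lost with 4 of the 6. Without homo replicate 1, 6 capsule genes were higher and 1 lower. Of 16 genes of fibrosis and epithelial-mesenchymal transition 0 passed (4 at an unadjusted p under 0.05, 4 by the likelihood-ratio test, 1 by DESeq2), and 3 were higher without homo replicate 1. Of 13 ion transport genes 1 was higher and 1, *Clic5*, fell, and without homo replicate 1 there were 3 higher and 2 lower. The higher gene was the chloride cotransporter *Slc12a2* at 6.16, 4.71 and 4.86 CPM in the het libraries and 6.81, 16.4 and 9.24 CPM in the homo libraries (log2 fold change 1.04, SE 0.29, adjusted p = 0.0285), lost with 4 of the 6.

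Imprinted growth genes had 2 of 10 tested members higher and 1 lower, beside 4.69% and 3.63% of all genes tested, and 0 past the threshold with the 6 libraries alone. *Cdkn1c*, which encodes the cell cycle inhibitor p57, was at 151, 168 and 104 CPM in the het libraries and 150.5, 318 and 372 CPM in the homo libraries (log2 fold change 0.99, SE 0.29, adjusted p = 0.0366), lost with 5 of the 6 libraries left out. *Igf2r*, the receptor that clears IGF2, was at 10.7, 11.00 and 7.98 CPM in the het libraries and 10.04, 35.7 and 30.1 CPM in the homo libraries (log2 fold change 1.35, SE 0.33, adjusted p = 0.0148), lost with 3 of the 6. *Mest*, a hydrolase-like protein, was at 26.5, 33.1 and 33.4 CPM in the het libraries and 22.3, 6.85 and 6.5 CPM in the homo libraries (log2 fold change -1.37, SE 0.32, adjusted p = 0.0103), lost with 2 of the 6 and with a log2 fold change of -2.21 without homo replicate 1. In all 3 homo replicate 1 was the homo library nearest to the het range. Of 12 immediate-early genes 0 passed (0 at an unadjusted p under 0.05, 1 by the likelihood-ratio test, 0 by DESeq2). Of 15 interferon-induced genes *Rsad2* alone passed (list median 0.29), and without homo replicate 1 there were 5 higher and 1 lower.

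**Figure D5:**
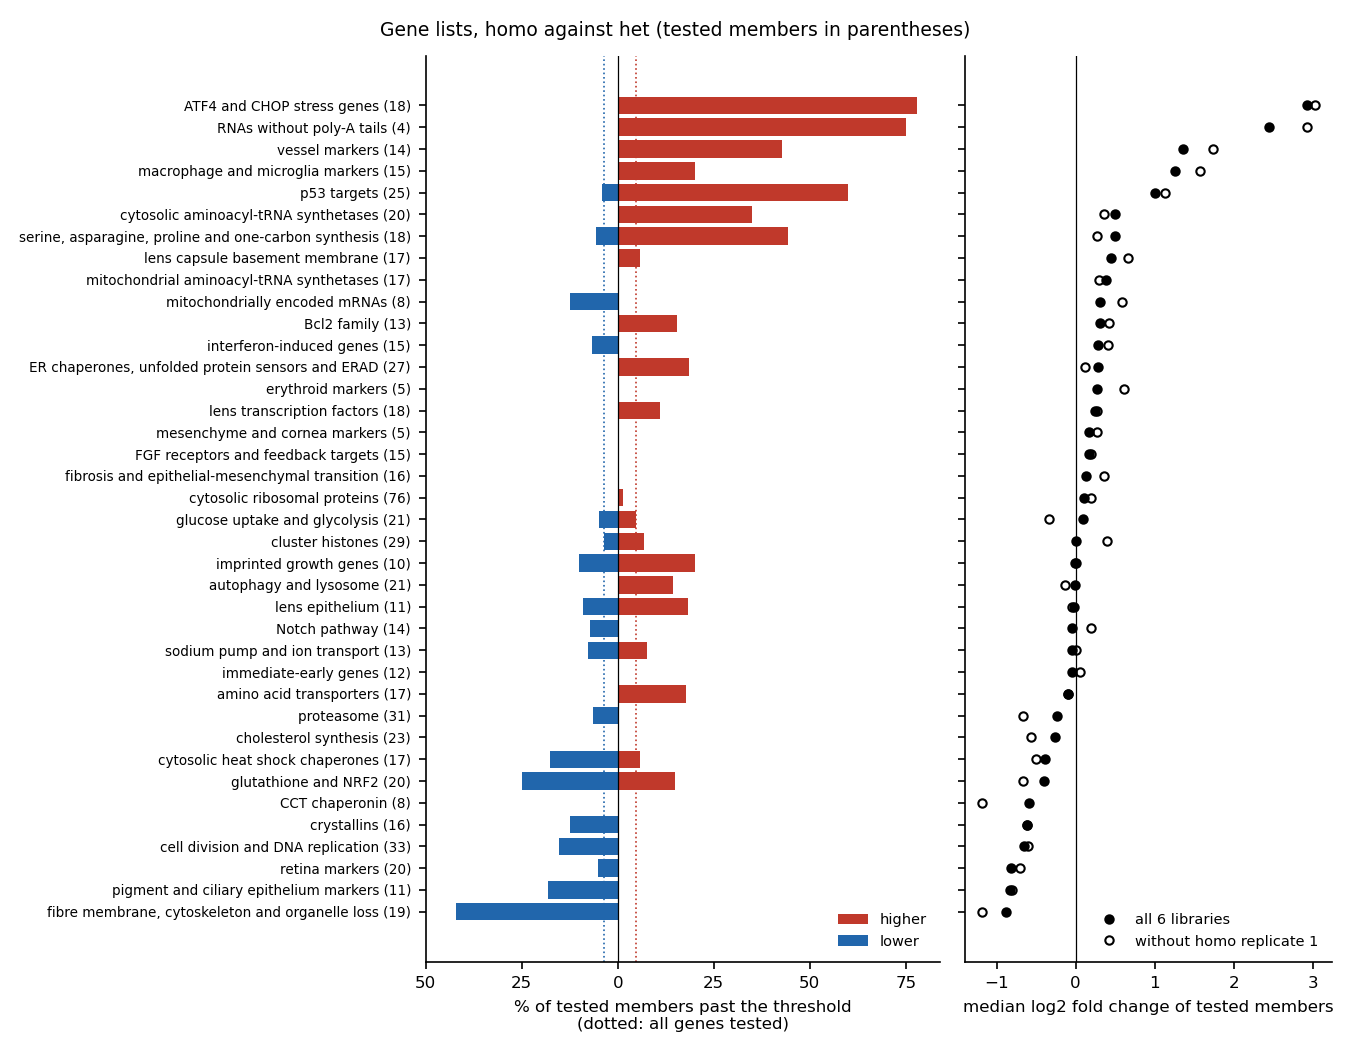
On the left, the share of tested members past the threshold that were higher (red) or lower (blue) in homo lenses for each gene list, with dotted lines at the shares over all genes tested (4.69% and 3.63%), and on the right the median log2 fold change of the tested members with all 6 libraries (filled) and without homo replicate 1 (open). With all 6 libraries and TMM scaling the ATF4 and CHOP list has the highest median, 2.93, and the fibre list the lowest, −0.88.

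*Cryaa* lies on chromosome 17, as do *Clic5*, *Tcp11* and *Cdkn1a*. Of 655 genes tested on this chromosome 64 passed the threshold (9.77%, against 8.32% of all genes), 36 higher and 28 lower. Within 5 Mb of the start of *Cryaa* 17 of 195 genes passed (8.72%), within 10 Mb 34 of 322 (10.6%), and beyond 20 Mb 20 of 213 (9.39%). The share near the gene was close to that of all genes, and no test was run on it. Chromosome 10 had the highest share among the autosomes, 75 of 670 genes (11.2%).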

How the data were processed

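RNA of pooled whole lenses was made into poly-A libraries and sequenced as single reads of 50 bases. The authors aligned reads with STAR 2.0.4b to GRCm38 with Ensembl annotation and counted unique, unambiguous reads per gene with featureCounts 1.4.5, and the deposited count table holds whole-number read counts without normalization. Deposited CPM, length-scaled and moderated log2 tables were not used. The strand setting of the counting is not given in the sources used here. Repeated lines of an Ensembl identifier were kept as 1, leaving 40800 genes.

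Counts were analysed with edgeR 4.0.16 in R 4.3.3: TMM scaling, filterByExpr (13938 genes kept), 1 model of 6 groups over 18 libraries, robust dispersions, and the quasi-likelihood test of homo minus het with Benjamini-Hochberg adjustment at 0.05. SE is that of the log2 fold change. Alternatives were RLE scaling, library size alone, other filters, fits of fewer libraries, the likelihood-ratio test, DESeq2 1.42.0, a replicate block and each library left out. Totals of 15362115 to 22018712 counts set the precision, and ratios, their exact 95% intervals and the floor of 3 counts cover counting error only.

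Gene lists, members and named genes were chosen with earlier results of these data known. Named were *Cryaa*, a set of genes the study names for this line (not all it names), the 10 largest rises and 10 largest falls past the threshold without overlap and with a mean count of at least 10 in a group, the 10 most abundant genes past it, and the 4 largest changes past it in each of 38 lists. Members that define a list are given with values. Gene positions came from GENCODE vM21 of the same assembly. A microglia marker was looked up under its current symbol, *Adgre1*.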

Additional observations from a re-analysis of the deposited data

How the results depend on the processing

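Against 1160 genes past the threshold, the count lay between 1019 and 1435 with RLE scaling, library size alone, other count filters or DESeq2. It was 294 when only the 6 het and homo libraries were fitted, 677 with the 9 libraries of the line and 3052 with the likelihood-ratio test, for which the cause was not tested. Leaving out each library in turn gave 460 to 4102, the highest without homo replicate 1 and the others at most 610; with 1 library removed, a group rests on 2. The share of higher genes was 80.1% with library size alone and 45.6% with the likelihood-ratio test, and 41.8% (without het replicate 3) to 52.7% with 1 library left out, against 56.4%. Of the 106 named genes past the threshold, 62 also passed with each library left out, 55 under every alternative that tested them and 58 with the 6 libraries alone, and none changed direction. The replicate numbers did not pair the samples: deviations of same-numbered het and homo libraries correlated at −0.283, 0.0109 and 0.11. A replicate block on the 6 libraries gave 342 genes, 154 higher and 188 lower. At these depths genes near 0 in a group give only bounds or wide ratios.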
